A study of Mus musculus with 9 samples.

Results

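Of 9 RNA sequencing libraries of embryonic mouse cortex, 4 carried high levels of genes of the olfactory bulb and 5 did not. The libraries were chosen by the value of 1 gene, Cdhr1, a cadherin-related protein of mitral and tufted cells, the output neurons of the bulb. Cdhr1 was above 1000 in the third wild-type library (WT3), the first heterozygous library (Het1) and the first and second homozygous mutant libraries (KO1 and KO2), called bulb libraries below. It was below 100 in the other 5 libraries (WT1, WT2, Het2, Het3 and KO3). Each set thus holds all 3 genotypes, and the bulb libraries are 1 of 3 WT, 1 of 3 Het and 2 of 3 KO libraries.

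All 9 libraries were made from the cortex of C57BL/6J embryos at embryonic day 18.5, with 3 libraries each of WT, Het and KO for Cyfip2, which encodes a subunit of the WAVE complex that promotes branched actin assembly. The labels name neither the mutant allele nor the line of origin, and they do not say that libraries of 1 genotype came from separate embryos or whether embryos were pooled. p-values therefore measure only the spread between these libraries, which may be technical. Values are normalized counts, that is, gene counts divided by a size factor for each library. Cyfip2 itself lay between 7522 and 8255 in the 3 KO libraries, between 8969 and 9882 in the 3 Het libraries and between 10169 and 11174 in the 3 WT libraries, with no overlap between the genotypes.

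The olfactory bulb sits at the front of the forebrain and receives the axons of sensory neurons in the nose. Mitral and tufted cells pass the signal on to the cortex, and granule and periglomerular interneurons shape it. The interneurons arise outside the bulb, in the lateral ganglionic eminence and septum, and travel into it along the rostral migratory stream. Olfactory ensheathing glia, which derive from the neural crest, wrap the incoming axons in the outermost layer. In a bulk library, more cells of a type and more RNA per cell cannot be told apart.

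Cortical neuron genes were abundant in all 9 libraries: Neurod6, a transcription factor of cortical excitatory neurons, ranged from 19275 in KO2 to 32658 in KO3. Totals per library were 36.03 to 38.56 M (M, mega), and the approximate depth was 29.5 to 54.4 M reads. Ddx3y, a gene of the Y chromosome, was at 0 in Het1, KO1 and KO2 and between 1394 and 1674 in the other 6 libraries. The first 3 were therefore read as female, so 3 of the 4 bulb libraries are female and WT3 is male, as are the 5 other libraries. Sex and bulb genes cannot be told apart among the 3 female libraries, and WT3 is the only male library with high Cdhr1. Het3 was low in meningeal genes: its summed level over 16 measured genes of meningeal fibroblasts was 2082, against 23162 to 51449 in the other 8 libraries.

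Cdhr1 (chr14:37077857-37098347, minus strand, positions throughout in GRCm38 from GENCODE) stood at 2229.7 in WT3, 3436 in Het1, 3237 in KO1 and 2138 in KO2. It stood at 43.3 in WT1, 45.1 in WT2, 53.1 in Het2, 50.03 in Het3 and 21.8 in KO3. KO2, the lowest library inside the rule, and Het2, the highest outside it, are therefore far apart, and no library lay between the 2 limits. As these values chose the libraries, the differences that follow describe 9 libraries and carry no test. A difference is the mean log2(normalized count + 1) of the 4 bulb libraries minus that of the 5 others, a scale that understates the change of low genes. Beside it stands the same difference within WT (WT3 minus WT1 and WT2), within Het (Het1 minus Het2 and Het3) and within KO (KO1 and KO2 minus KO3).

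Tbx21 (chr11:97098071-97115331, minus strand), a T-box transcription factor of mitral and tufted cells, stood at 84.2 in WT3, 69.7 in Het1, 48.5 in KO1 and 48.6 in KO2. Elsewhere it stood at 2.38 in WT1, 3.38 in WT2, 10.01 in Het2, 4.29 in Het3 and 5.64 in KO3. The 2 sets did not overlap, and WT3 was the highest library. The log2 difference was 3.46, with 4.47 within WT, 3.21 within Het and 2.90 within KO.

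Th (chr7:142892752-142931128, minus strand), tyrosine hydroxylase, makes the dopamine precursor in periglomerular neurons. It stood at 127 in WT3, 115 in Het1, 118 in KO1 and 79.5 in KO2. Its values were 0 in WT1, 1.92 in WT2, 5.06 in Het2, 4.07 in Het3 and 4.58 in KO3 outside the bulb libraries. All 4 bulb libraries were above all 5 others, with a log2 difference of 4.98 (6.22 within WT, 4.39 within Het and 4.13 within KO). Cdhr1, Tbx21 and Th thus moved together. Only Cdhr1 set the split, but the genes and the rule were chosen with earlier results of these data known. That Tbx21 and Th follow the split is therefore a description and no independent support for it.

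**Figure D1:**
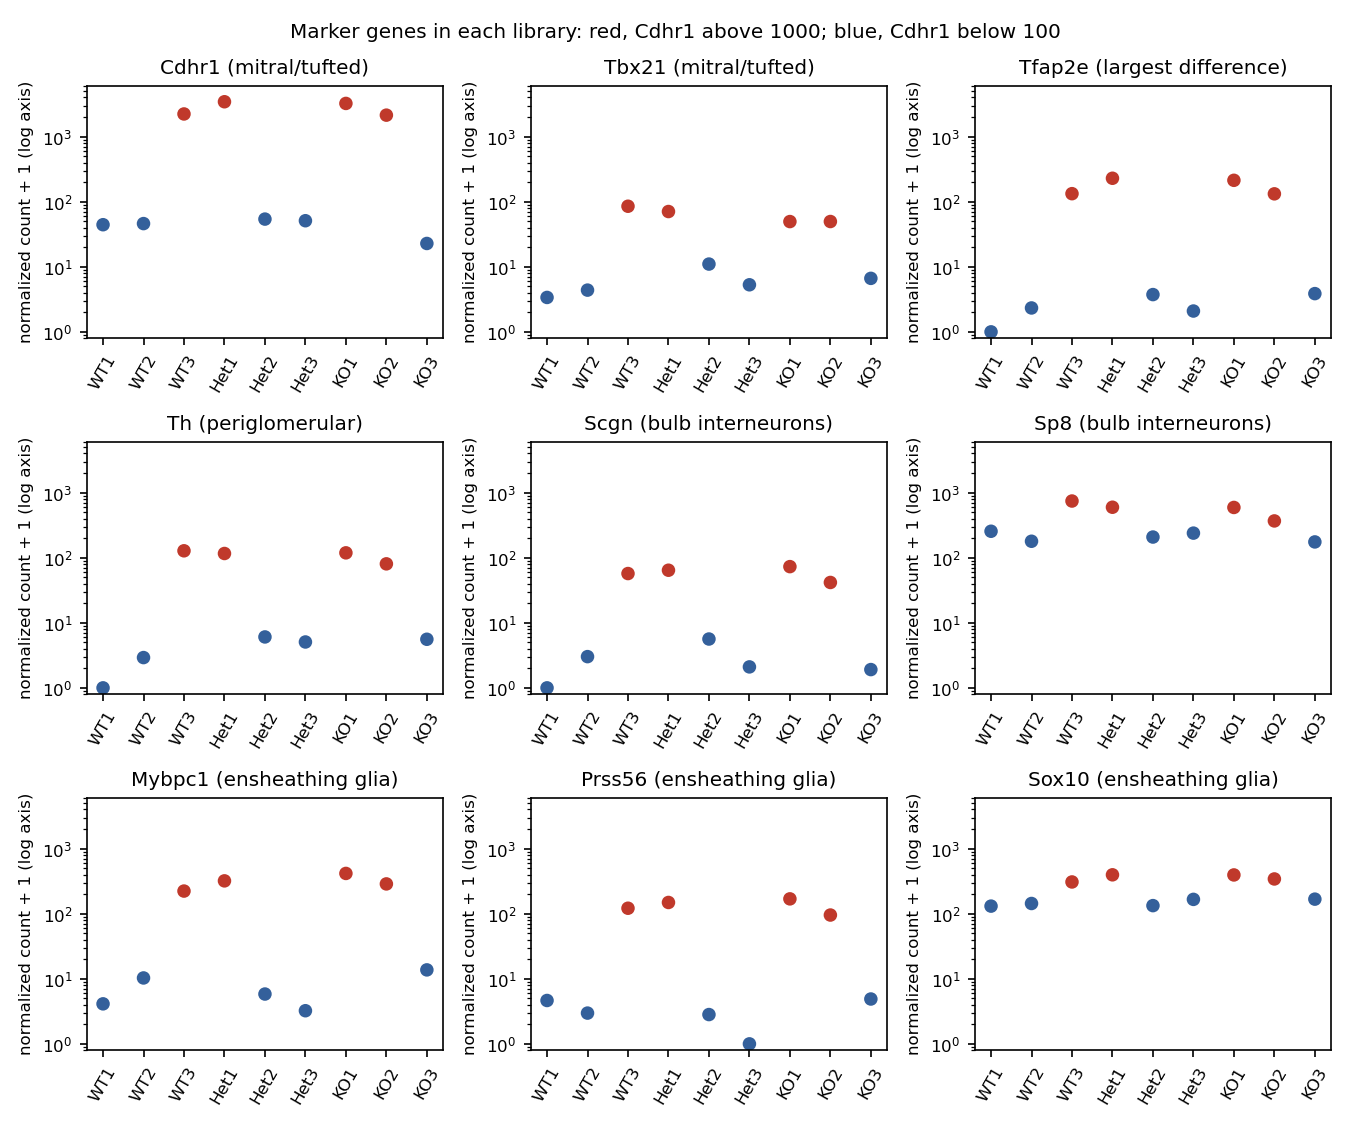
Normalized count + 1 (log axis) of 9 genes in each of the 9 libraries; each point is 1 library, red for the 4 with Cdhr1 above 1000 and blue for the 5 with Cdhr1 below 100. The red points lie above the blue points in every panel, by the most for Tfap2e, Cdhr1 and Mybpc1 and by less for Sp8 and Sox10, which were present in all 9 libraries.

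The bases just before the start of 3 of these genes are given because Cdhr1 defines the split, Th is its interneuron marker and Mybpc1 is the ensheathing glia gene with the largest difference. The sequences are the 250 bases before each RefSeq start (GRCm38.p6), printed 5′ to 3′ on the gene's strand, here the minus strand for all 3, at chr14:37098348-37098597 for Cdhr1, chr7:142899996-142900245 for Th and chr10:88605153-88605402 for Mybpc1. The Th window lies inside the GENCODE span of the gene, since the 2 annotations start it at different places. Capitals mark the matches to the motifs described next.
Cdhr1: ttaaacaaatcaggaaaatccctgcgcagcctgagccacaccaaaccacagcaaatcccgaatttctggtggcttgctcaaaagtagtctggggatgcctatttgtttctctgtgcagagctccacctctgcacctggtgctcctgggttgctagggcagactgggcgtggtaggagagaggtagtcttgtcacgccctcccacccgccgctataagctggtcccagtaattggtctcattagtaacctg
Th: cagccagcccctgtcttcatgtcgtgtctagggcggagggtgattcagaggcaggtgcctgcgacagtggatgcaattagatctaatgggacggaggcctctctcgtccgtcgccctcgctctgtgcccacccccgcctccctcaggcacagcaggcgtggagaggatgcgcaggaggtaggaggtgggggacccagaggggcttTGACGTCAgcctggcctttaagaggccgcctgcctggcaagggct
Mybpc1: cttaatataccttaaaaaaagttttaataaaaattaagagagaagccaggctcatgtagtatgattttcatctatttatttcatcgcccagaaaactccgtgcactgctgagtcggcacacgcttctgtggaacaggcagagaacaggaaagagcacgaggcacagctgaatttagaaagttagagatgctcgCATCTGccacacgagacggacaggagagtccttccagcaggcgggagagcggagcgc
4 motifs were searched on both strands: TAATTA (homeodomain core), GGTGTGA (T-box core), CAGATG (an E-box) and TGACGTCA (the cyclic AMP response element, added after the sequences were seen). The Th window holds TGACGTCA, starting 45 bases before the start. The Mybpc1 window holds CATCTG, the reverse complement of CAGATG, starting 57 bases before the start. No motif is contained in another. None of the 4 is in the 250 bases of Cdhr1.

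The motifs were counted in the same window of the 65 genes that were higher by at least 1 in each of the 3 genotypes (defined below), of which 44 had a RefSeq promoter. TGACGTCA was in 4 of these 44 (9.09%) and in 2.73% of the 10924 measured genes with a promoter. GGTGTGA was in 3 of 44 (6.82%), against 2.8% of measured genes. TAATTA was in 2 of 44 (4.55%), against 2.3%. CAGATG was in 3 of 44 (6.82%), against 10.07%. Over all 200 genes higher by at least 1, with 128 promoters, the shares were 3.91% for TGACGTCA, 4.69% for GGTGTGA, 3.91% for TAATTA and 12.5% for CAGATG. These counts of 2 to 4 promoters among the 44 are a description and no sign of a site in use.

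Over all 14513 autosomal genes with a mean of at least 10, the bulb libraries did not overlap the others and were higher for 633 genes (4.36%) and lower for 381 (2.63%). The sizes differed: the median log2 difference was 0.72 for the 633 higher genes and -0.14 for the 381 lower ones. With a log2 difference of at least 1 as well, 200 genes were higher (1.38%) and 1 was lower (0.00689%). Of the separated genes, 62.43% were higher with the authors' scaling, 48.33% after quantile normalization (391 higher, 418 lower) and 81.66% after upper-quartile rescaling (757 higher, 170 lower). The rule used this contrast, so these shares are no test. Leaving out Het3, the library low in meningeal genes, left 127 genes higher by at least 1, of which 117 were among the 200, and leaving out WT3 gave 344.

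**Figure D2:**
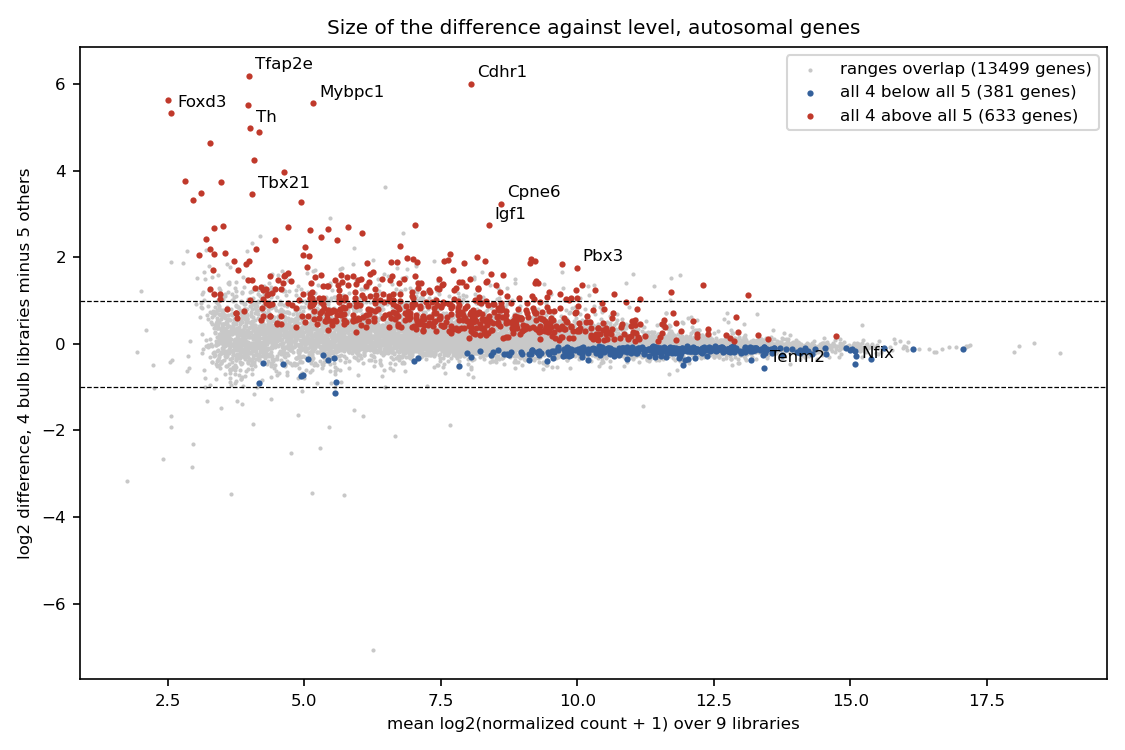
Log2 difference between the 4 bulb libraries and the 5 others against the mean log2(normalized count + 1) over 9 libraries, 1 point per autosomal gene; dashed lines mark differences of 1 and -1. The 633 red genes reach differences above 6, while the 381 blue genes lie close to 0 and 1 of them passes -1.

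Of the 200 genes, 65 were higher by at least 1 within each of the 3 genotypes, 42 of the 200 had a log2 difference of at least 2 and 18 one of at least 3. Among the 65, KO1 was the highest library for 38 genes, Het1 for 11, and WT3 and KO2 for 8 each. The lowest of the 4 bulb libraries was KO2 for 30 genes, WT3 for 20, Het1 for 11 and KO1 for 4. Of the 65, 14 were on any of the 25 gene lists used here and 13 were on the 5 bulb lists. For 140 of the 200, WT3 also exceeded the mean of the 5 other male libraries by at least 1, which compares libraries of 1 sex. That mean includes Het3, which lowers it for meningeal genes. Dcn, a meningeal gene, stood at 1355 in WT3 and 23.9 in Het3, and differed by 0.49 within WT. Within WT, where all libraries are male, 53 of the 200 differed by less than 0.5.

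The largest difference among the 633 higher genes was that of Tfap2e (chr4:126716006-126736240, minus strand), the AP-2 epsilon transcription factor, known from the developing olfactory bulb. It stood at 132 in WT3, 228 in Het1, 212 in KO1 and 131 in KO2. Outside the bulb libraries it was near the value of 1 read, at 0 in WT1, 1.33 in WT2, 2.74 in Het2, 1.09 in Het3 and 2.87 in KO3. Its log2 difference was 6.19, with 6.44 within WT, 6.36 within Het and 5.44 within KO.

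Ms4a15, a membrane-spanning 4A family protein, stood at 55.8 in WT3, 50.4 in Het1, 61.6 in KO1 and 31.9 in KO2 and is listed at 0 in the 5 other libraries. Zpld1, a zona pellucida domain protein, ranged over 101 to 132 in the bulb libraries and 0.89 to 4.84 in the others (log2 difference 4.89). Mafa, a large Maf transcription factor, ranged over 76.1 to 95.7 against 2.80 to 5.93 (log2 difference 4.25). For these 3 genes all 4 bulb libraries were far above the rest.

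Fgf15, a secreted growth factor, ranged over 87.5 to 192 against 1.83 to 23.8, and its difference was smaller within WT (2.74 within WT, 4.14 within Het and 5.53 within KO). Ankrd34c, an ankyrin repeat protein, was almost level among the bulb libraries, at 28.5 in WT3, 31.2 in Het1, 29.3 in KO1 and 27.2 in KO2. Oc90, known as a protein of the inner ear, ranged over 32.2 to 71.00 against 1.16 to 7.48. Elf5, an ETS transcription factor, was uneven: it stood at 8.29 in WT3, 48.4 in Het1, 44.9 in KO1 and 54.1 in KO2, so that WT3 was close to the 5 others (0 to 4.65). Arhgef16, a guanine nucleotide exchange factor, and Samd3 had log2 differences of 3.33 and 3.28.

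Genes of higher level allow a ratio. Cpne6 (chr14:55510445-55517431, plus strand), a calcium-dependent membrane-binding protein of neurons, was at 1479 in WT3, 1252 in Het1, 1533 in KO1 and 1167 in KO2. It was at 191 in WT1, 173 in WT2, 135 in Het2, 149 in Het3 and 87.8 in KO3. Its mean was 1358 ± 176 (SD, n = 4) against 147 ± 39.7 (SD, n = 5), a ratio of 9.23, and the spread within each set was far smaller than the gap. Igf1, insulin-like growth factor 1, averaged 971 ± 209 (SD, n = 4) against 149.8 ± 50.05 (SD, n = 5), a ratio of 6.48, with WT3 at 713 and KO1 at 1218. Cdhr1 averaged 2760.3 ± 671 (SD, n = 4) against 42.7 ± 12.3 (SD, n = 5).

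The 5 bulb lists hold 63 genes, of which 59 passed the level filter. All 4 bulb libraries were above all 5 others for 25 of the 59, where 4.36% of all genes were, and for none were they all below. The libraries and lists were chosen with bulb genes in view, and the 25 include Cdhr1 itself, so this count is a description.

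Of the 9 measured mitral and tufted genes, Cdhr1 and Tbx21 separated the libraries and 7 did not (list median 0.25, with -0.03 within WT, 0.31 within Het and 0.87 within KO, against -0.01 over all genes). Without KO3 the list median was 0.15. Lbhd2, the tenth, has a mean under 10, at 17.7 in WT3, 19.00 in Het1, 11.3 in KO1 and 9.95 in KO2 and 0 to 1.08 in the others. Reln, the secreted guidance protein reelin, ranged over 13695 to 17697 in the bulb libraries and 9830.4 to 16484 in the others. Eomes (Tbr2), a T-box factor, had a log2 difference of 0.09, and Slc17a6, a vesicular glutamate transporter, one of 0.12. Reln is also made by Cajal-Retzius cells of the cortex and Eomes by its intermediate progenitors, and both were high in all 9 libraries. Doc2g, a C2 domain protein, was also level (log2 difference -0.04). As Cdhr1 chose the libraries, its separation was fixed in advance. Beside it, the mitral and tufted label rests only on Tbx21 and on Lbhd2, which is under the filter.

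Among the 9 measured periglomerular genes, Th, Calb2, Trh and Etv1 separated the libraries (list median 0.63, with 0.78 within WT, 0.68 within Het and 0.65 within KO). Calb2, the calcium-binding protein calretinin, stood at 1319 in WT3, 909 in Het1, 1134 in KO1 and 923 in KO2. Elsewhere it stood at 469.6 in WT1, 641 in WT2, 585 in Het2, 514 in Het3 and 343 in KO3. Every bulb library exceeded the highest of the others, by a ratio of the means of 2.10. Trh, thyrotropin-releasing hormone, had a log2 difference of 1.33, but only 0.445 within KO. Etv1, an ETS factor of dopaminergic neurons, ranged over 1831 to 2116 against 1157 to 1525.

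The other dopaminergic genes did not separate. Ddc, which completes dopamine synthesis, ranged over 18.6 to 49.1 against 15.04 to 34.1. Slc18a2, the vesicular monoamine transporter, had 0.02 within WT, 1.73 within Het and 4.37 within KO. Nr4a2, a nuclear receptor of dopaminergic and of cortical subplate neurons, went in different directions, with -2.003 within WT, 0.11 within Het and 2.68 within KO. Slc6a3, the dopamine transporter, has a mean under 10.

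Of 20 genes of granule cells and migrating interneurons, 13 separated the libraries, all higher in the bulb libraries (list median 0.78, with 0.48 within WT, 0.88 within Het and 1.39 within KO). Scgn (chr13:23953456-23991214, minus strand), the calcium sensor secretagogin, stood at 56.1 in WT3, 63.2 in Het1, 71.95 in KO1 and 40.6 in KO2. It was at 0 to 4.63 in the others. Sp8 (chr12:118846329-118852576, plus strand), a zinc finger factor required for bulb interneurons, stood at 742 in WT3, 596 in Het1, 591 in KO1 and 367 in KO2. Its values were 254 in WT1, 178 in WT2, 207 in Het2, 238 in Het3 and 174 in KO3 in the rest. WT3 was the highest for Sp8, and KO2 the lowest of the 4.

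Synpr, a synaptic vesicle protein, averaged 667 ± 72.00 (SD, n = 4) against 178 ± 31.8 (SD, n = 5), a ratio of 3.75. Pbx3, a homeodomain factor, averaged 2013 ± 264 (SD, n = 4) against 609.9 ± 182 (SD, n = 5), a ratio of 3.30. Tshz1 and Zic1, zinc finger factors of this lineage, had ratios of 2.17 and 1.97. All 4 genes were separated.

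The remaining separated members are shared by many forebrain GABAergic neurons. Dlx1, Dlx2, Dlx5 and Dlx6, homeodomain factors of the ganglionic eminences, had log2 differences of 0.71, 0.71, 0.98 and 1.49. Gad1, which makes GABA, had 0.33 within WT, 0.75 within Het and 1.37 within KO. Slc32a1, the vesicular GABA transporter, and Sp9 were separated by 0.54 and 1.05. Gad2, Meis2, Vax1, Zic2, Cpne4, Tpbg and Prokr2 overlapped, with log2 differences from -0.08 for Tpbg to 0.75 for Vax1.

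Ensheathing glia genes had the highest median of the 25 lists (2.71, with 1.82 within WT, 3.02 within Het and 2.40 within KO), and 6 of 9 separated the libraries. With WT3 set against the 5 other male libraries alone, the median was 1.75. Mybpc1 (chr10:88518279-88605152, minus strand), a myosin-binding protein, stood at 222 in WT3, 319 in Het1, 415 in KO1 and 286 in KO2. It was at 3.12 in WT1, 9.30 in WT2, 4.83 in Het2, 2.23 in Het3 and 12.7 in KO3. No library lay between the 2 sets, and KO1 was the highest. Prss56, a serine protease, ranged over 94.4 to 168 against 0 to 3.89 (log2 difference 5.52).

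Foxd3, a neural crest forkhead factor, stood at 27.9 in WT3, 56.2 in Het1, 72.6 in KO1 and 35.4 in KO2 and at no more than 0.94 in the others. Frzb, a secreted Wnt inhibitor, averaged 381 ± 79.2 (SD, n = 4) against 61.2 ± 29.9 (SD, n = 5). Erbb3, the neuregulin receptor, stood at 80.01 in WT3, 212 in Het1, 233 in KO1 and 153 in KO2 and ranged over 15.4 to 35.03 in the others, so WT3 had the lowest level of the 4. Sox10, shared with the oligodendrocyte lineage, was present throughout, with a ratio of 2.44.

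Npy, Ngfr and Fabp7, which other cells of the cortex also express, did not separate and had log2 differences of 0.01, -0.03 and 0.21. Of the oligodendrocyte lineage list, Sox10 and Pdgfra separated and the median was 0.13. Its summed level over 10 genes was 6141 to 7280 in the bulb libraries and 5319 to 6335 in the others.

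None of the 13 measured genes that guide migration along the rostral stream separated the libraries (median -0.08). Nrp2, a semaphorin receptor, was lowest in Het3 at 1119 and KO3 at 616 and highest in KO2 at 8517, with Het1 at 2665. Robo1 and Robo2, receptors for Slit proteins, had log2 differences of -0.11 and 0.01.

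Of 10 listed markers of the sensory neurons of the nose, only Adcy3, Gnal and Ric8b passed the filter (median -0.06). All 3 were at 1231 or more in all 9 libraries, so this median says little about sensory neurons. Omp, olfactory marker protein, ranged over 8.67 to 12.9 in the bulb libraries and 3.86 to 10.9 in the others, Gng13 and Rtp1 were also below the filter, and none of the 3 measured members separated.

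**Figure D3:**
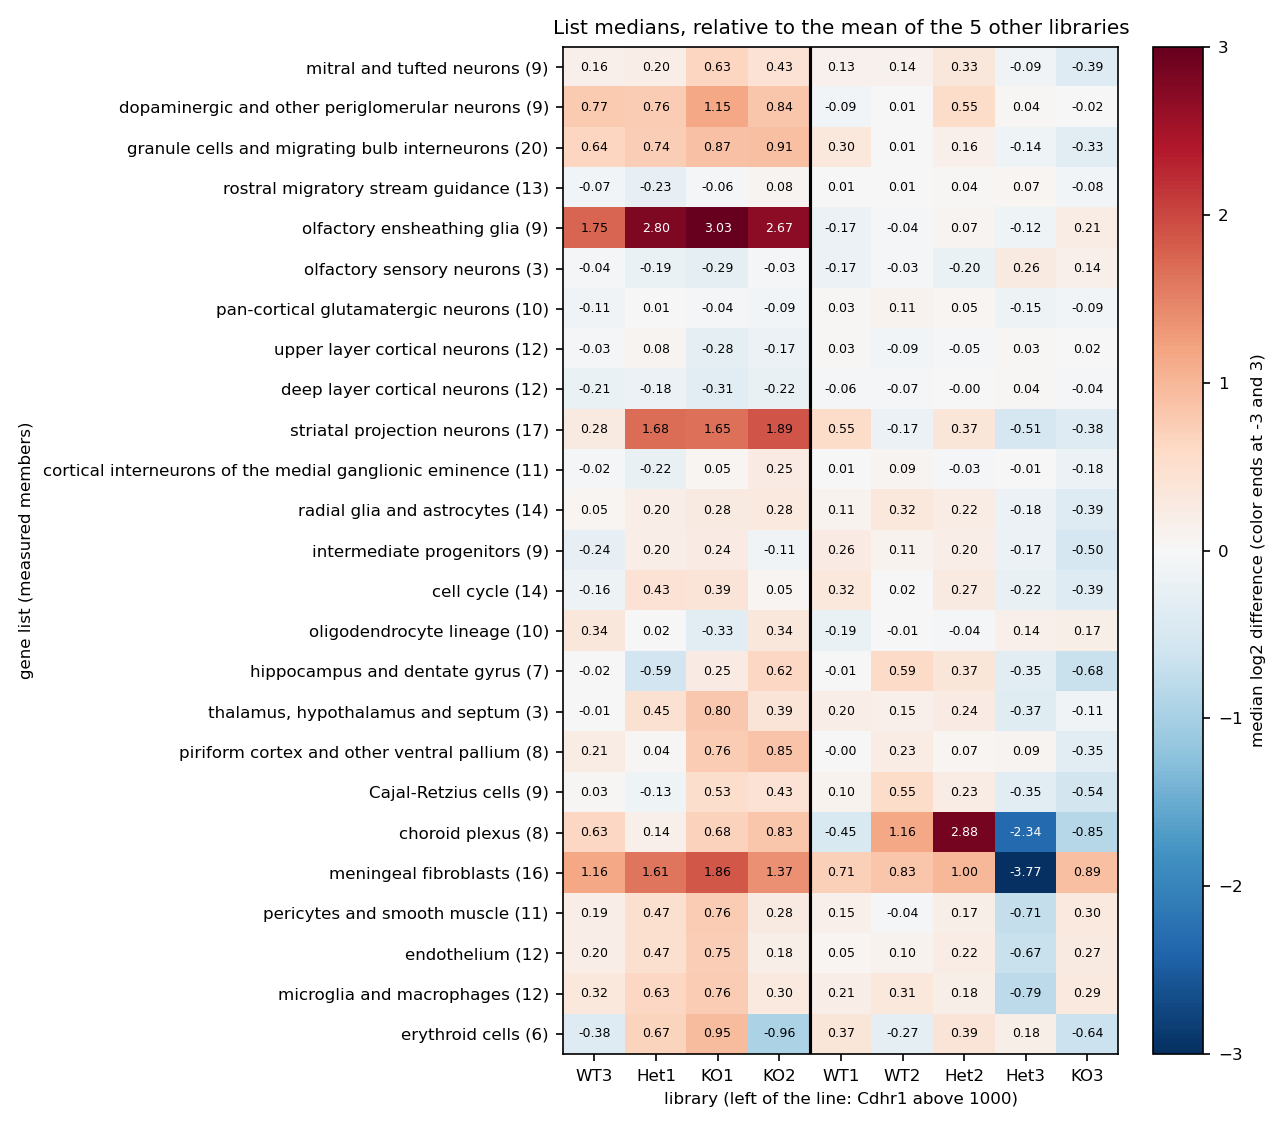
Median over the measured members of each of 25 gene lists (rows) in each library (columns), as the log2 difference from the mean of the 5 other libraries; libraries left of the line have Cdhr1 above 1000. Ensheathing glia genes are high in all 4 bulb libraries, striatal genes are at 0.28 in WT3 and 1.65 to 1.89 in Het1, KO1 and KO2, and Het3 is at -3.77 for meningeal genes.

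The genes lower without overlap moved little. Zfp781, a zinc finger protein, was the single gene lower by at least 1 without overlap, at 40.3 in WT3, 22.5 in Het1, 26.5 in KO1 and 30.8 in KO2 against 44.1 to 86.8 in the others (log2 difference -1.13). Tenm2, an adhesion protein of synapses, averaged 8827 ± 508 (SD, n = 4) against 13179.5 ± 2434 (SD, n = 5). Nfix, a transcription factor abundant in cortical neurons and progenitors, averaged 29259.9 ± 3878 (SD, n = 4) against 40648 ± 4670.0 (SD, n = 5), and was almost level within WT (-0.09). Grem1, a BMP antagonist, Nr4a3, a nuclear receptor, and Ryr3, a calcium release channel, had log2 differences of -0.51, -0.48 and -0.38. Among genes without overlap that were lower within all 3 genotypes, the other 9 of the 15 with the most negative differences lay between -0.47 for Zfp385c and -0.35 for Thbs1.

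Of 34 cortical neuron genes on 3 lists, all measured, 6 were lower and 2 higher without overlap, where 2.63% and 4.36% of all genes were. The medians were -0.02 for pan-cortical (0.01 after upper-quartile rescaling), -0.20 for upper layer and -0.30 for deep layer genes. The pan-cortical median was -0.12 without KO3 and 0.02 without Het2, and the upper layer median was -0.08 without KO1. The deep layer median was below 0 within each genotype (-0.20 within WT, -0.25 within Het and -0.20 within KO). Summed over its 12 genes, the deep layer level was 57886 to 63492 in the bulb libraries and 68209 to 72055 in the others, with no overlap. The pan-cortical sums did not overlap either, at 82185 to 98941 against 100586 to 116717. Each of these sums leans on 1 abundant gene that was itself lower without overlap. Nfib made up 20584 to 23429 of the deep layer sum in the bulb libraries and 24884 to 27271 in the others. Nfix made up 25837 to 34515 of the pan-cortical sum, against 34654 to 46156. The sums alone therefore do not show a fall across the lists. The upper layer sums overlapped, at 69273 to 87485.5 against 78957 to 94191.

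Slc17a7, a vesicular glutamate transporter of cortical neurons, went the other way, at 2371 to 2971 in the bulb libraries and 1517 to 2242 in the others. Foxp2, a forkhead factor of deep layer neurons, was also higher, with a ratio of 1.42.

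Genes of other tissues differed between the same sets of libraries, and their part in the results was not tested. Of 17 striatal projection neuron genes, 3 separated the libraries (median 1.27, with 0.16 within WT, 1.68 within Het and 2.21 within KO). With WT3 as the only bulb library against the 5 other male libraries, the median was 0.28. The summed level of these 17 was 13955 to 17994 in the bulb libraries and 12212 to 15022 in the others, and no member was at 0 in all libraries of a set. Isl1, a LIM factor of striatal and other neurons, stood at 16.7 in WT3, 282 in Het1, 209 in KO1 and 334 in KO2 and 4.03 to 79.7 in the others. Tac1, the substance P precursor, stood at 55.9 in WT3, 143 in Het1, 183 in KO1 and 149 in KO2 and 12.3 to 44.8 in the others. WT3 had Cdhr1 and Th at the level of the other bulb libraries but Isl1 and Six3 within the range of the 5 others. Six3 was at 34.01 in WT3 and 10.01 to 209.73 in the 5 others. Not all members did so: Penk and Ppp1r1b, also on the striatal list, had their highest values of all 9 libraries in WT3, at 168.7 and 1867.

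Of 16 meningeal fibroblast genes, 8 separated the libraries (median 1.55, with 0.35 within WT, 2.99 within Het and 0.71 within KO). Their summed level was 28689 to 51449 in the bulb libraries and 2082 to 26995 in the others. Dcn, the matrix proteoglycan decorin, stood at 1355 in WT3, 1779 in Het1, 2227 in KO1 and 1553 in KO2. It was at 898 in WT1, 1033 in WT2, 1001 in Het2, 23.9 in Het3 and 1065 in KO3, so that Het3 alone was near 0. Slc6a13, a GABA and taurine transporter of the meninges, ranged over 1077 to 1502 against 11.8 to 821, the latter with Het3 at its low end. Without Het3 the list median was 0.62. Among the 200 genes higher by at least 1, 51 had a difference above 2 within Het and under 1 within WT.

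**Figure D4:**
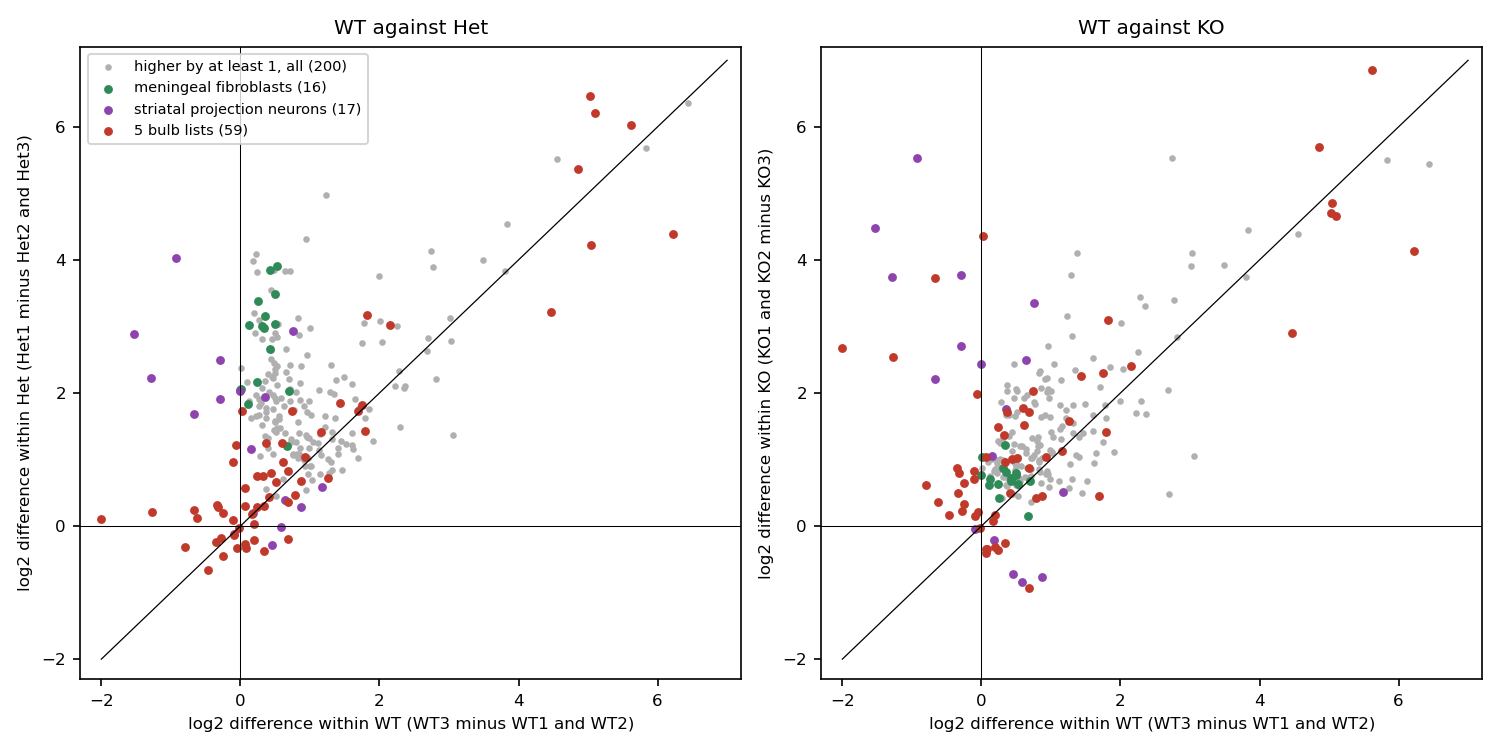
Log2 difference within WT (x axis) against that within Het (left, y axis) and within KO (right, y axis), 1 point per gene: grey for the 200 genes higher by at least 1, red for 59 measured bulb genes, purple for 17 striatal genes and green for 16 meningeal genes; the diagonal marks equal differences. Cdhr1, Mybpc1 and Foxd3 lie near the diagonal, meningeal genes are high within Het, and several striatal genes are high within Het and KO and near or below 0 within WT.

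Other lists shifted less. Median differences were 0.49 for pericytes and smooth muscle, 0.41 for endothelium, 0.47 for microglia and macrophages and 0.04 for erythroid cells, with 1, 1, 0 and 0 separated members. Without Het3, the first 3 of these were 0.22, 0.25 and 0.28, and within WT they were 0.07, 0.07 and -0.18. Radial glia and astrocytes (0.18), cell cycle (0.18), Cajal-Retzius cells (0.13), intermediate progenitors (0.04), hippocampus (0.04) and interneurons of the medial ganglionic eminence (0.01) had medians below 0.2. Choroid plexus was at 0.53 (-0.19 without Het3), piriform cortex at 0.45 (0.25 without KO2) and the list of thalamus, hypothalamus and septum at 0.44. Barhl2, a homeodomain factor, was the separated member of 8 piriform and ventral pallium genes (ratio 2.77). Ttr, transthyretin of the choroid plexus, was highest in Het2 at 11029 and WT2 at 3156, both outside the bulb libraries.

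The genotypes can be compared with the bulb libraries marked, since genotype comes from the labels and not from Cdhr1. Sex is not balanced over them, as Het1, KO1 and KO2 were read as female and all WT libraries as male. The fit below has no sex term, so its genotype differences overlap with sex in part. limma was fitted to log2(normalized count + 1) of all 9 libraries with the genotype and a term for bulb libraries, and p-values were adjusted over all 14513 genes by the Benjamini-Hochberg method. No gene passed an adjusted p of 0.05 in KO against WT, in Het against WT or in KO against Het (0 of 14513, 0%, in each). Unadjusted p-values were under 0.05 for 161 genes in KO against WT (73 higher, 88 lower), 290 in Het against WT and 375 in KO against Het. Without the bulb term no gene passed either, with unadjusted counts of 172, 229 and 519. Each of these unadjusted counts is below a share of 0.05 of the 14513 genes, the share that no difference would give on average.

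The term changed the values of the bulb genes, as the KO group holds 2 bulb libraries and the WT group 1. The median KO minus WT log2 difference of the 9 ensheathing glia genes was 0.86 without the term and 0.05 with it. KO minus Het gave 1.05 and 0.04. For the 20 granule cell and migrating interneuron genes the KO minus WT median was 0.15 without and -0.14 with the term. Cdhr1, on which the term is built, had a KO minus WT log2 difference of 1.71 ± 2.43 (limma SE) without and -0.35 ± 0.28 with it. Het minus WT is the same in both fits, since each group holds 1 bulb library. Over all 16 meningeal genes it was -1.22, with Het3 in the Het group.

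The genes with the smallest p in KO against WT are given as not passing. Fndc9, a fibronectin type III domain gene, was at 2.52, 4.47 and 0.92 in the KO libraries and at 29.4 to 64.6 in the WT libraries (log2 difference -3.69 ± 0.51 SE, limma adjusted p = 0.9998). Cyfip2 had a log2 difference of -0.41 ± 0.06 SE (limma adjusted p = 0.9998), and Tmem254a, a transmembrane protein, one of -0.41. On the higher side, Aloxe3, an epidermis-type lipoxygenase, stood at 161, 185 and 111 in the KO libraries and 67.1 to 72.0 in WT (log2 difference 1.00 ± 0.20 SE, limma adjusted p = 0.9998). Arl4a, a small GTPase, had a log2 difference of 0.19. Erbb3, the ensheathing glia gene above, had 1.03 ± 0.28 SE with the term, and 1.87 without it.

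For Het against WT the smallest p-values belonged to Ciz1, Syne2 and Cacna1h, higher by 0.23, 0.24 and 0.23, and to Mrps23, Mrpl19 and Triqk, at -0.41, -0.49 and -0.43 (limma adjusted p = 0.999 for each). For KO against Het they belonged to Aloxe3, Pcdhgc4 and E2f3, at 1.15, 0.47 and 0.49, and to Fndc9, Ly6g6e and Clpb, at -2.76, -0.73 and -0.48 (limma adjusted p = 0.9998 for each). Of these 12 genes, none is on a bulb list.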

How the data were processed

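RNA from the cortex of 9 libraries was sequenced after preparation with a strand-keeping mRNA kit, per the labels' protocols. The deposited signal is gene counts that the authors divided by size factors. Build GRCm38 and the tools DESeq2 1.19.11, Salmon 0.11.2 and R 3.6.0 appear in the submitters' processing notes, without their roles. The selection of its 18820 genes is not stated. Whole reads could not be recovered, so no count test was used. The design planned this case.

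Genes on X and Y and genes with a mean under 10 were left out, leaving 14513. Values were taken as log2(value + 1). The libraries were split at Cdhr1 above 1000 and below 100. A gene counts as separated where the 4 and 5 libraries do not overlap. limma 3.58.1 in R 4.3.3 (lmFit, eBayes with trend, two-sided, threshold 0.05) was checked on simulated data. Approximate depth, 29.5 to 54.4 M reads (M, mega), is the total divided by the smallest step between low values, and it limits genes near 1 read. Symbols, positions and strands came from GENCODE M21 (18800 of 18820 IDs), and promoters from RefSeq (GRCm38.p6). 1 promoter motif, TGACGTCA, was added after the sequences were seen.

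The members, the 25 gene lists and the rules were chosen with earlier results of these data known. Named genes are Cyfip2, the members of the 5 bulb lists, up to 3 members of each other list with the largest difference, the 20 largest positive and 15 most negative separated genes with 1 direction in all 3 genotypes, Ddx3y for sex, and the 3 genes with the smallest p in each direction of each genotype contrast. The text describes only some of the genes that the rule takes. Groups share replicate numbers. Deviations of same-numbered libraries correlated at 0.442, 0.146 and 0.463 between Het and KO. They correlated at -0.074, 0.26 and 0.029 between WT and Het and at -0.034, 0.054 and -0.031 between WT and KO. Het1 and KO1 are both female bulb libraries, and Het3 and KO3 are both male libraries with low Cdhr1. Of differently numbered libraries, Het2 and KO1 correlated at 0.156 and Het3 and KO1 at -0.453. Het1 and KO2, both female bulb libraries, correlated at 0.087, and Het2 and KO3, both male with low Cdhr1, at -0.225. Whether the correlations follow the number, the bulb genes or sex was not tested, and the labels state no pairing.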

Additional observations from a re-analysis of the deposited data

Results flagged for a closer look

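In 5 of 50 sets of 4 or 5 libraries, 1 library lay far from the others in a list median (log2, relative to the mean of the 5 libraries with low Cdhr1). About 5% of sets would be marked this way by chance if the sets were independent. They are not, as the lists share the same 9 libraries and some genes. Striatal genes were at 0.28 in WT3, against 1.65 to 1.89 in the other 3 bulb libraries. Het3 was at -3.77 for meningeal genes, -0.67 for endothelium and -0.79 for microglia and macrophages, the lowest of the 5 other libraries for each. Het2 was at 0.55 for periglomerular genes, the highest of the 5.

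For 11 lists the difference between bulb and other libraries had opposite signs in 2 genotypes, in every library, and the difference between genotypes was not tested. Several medians within WT were below 0 and those within KO above it: radial glia and astrocytes (-0.22 within WT, 0.70 within KO), hippocampus and dentate gyrus (-0.64 within WT, -0.59 within Het, 1.20 within KO) and Cajal-Retzius cells (-0.11 within WT, 1.02 within KO). Intermediate progenitors were at -0.48 within WT, 0.17 within Het and 0.52 within KO. Cell cycle genes were at -0.32 within WT, 0.44 within Het and 0.61 within KO. The list of thalamus, hypothalamus and septum was at -0.31 within WT, 0.52 within Het and 0.94 within KO. Erythroid genes were at -0.41 within WT and 0.46 within Het. Piriform and ventral pallium genes were at -0.0193 within Het and 1.28 within KO, and upper layer genes at 0.0269 within Het and -0.15 within KO. Genes of medial ganglionic eminence interneurons were at -0.0429 within WT, -0.27 within Het and 0.36 within KO. Rostral stream guidance genes were at -0.0877 within WT, -0.27 within Het and 0.17 within KO.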

How the results depend on the processing

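Of 2656 alternatives for 141 named genes, 2590 moved by less than 1 SD and 66 moved by more. The sign changed in 0 of 1202 alternatives for the 64 named genes without overlap, and in 89 of 1454 for the 77 with overlap, among 34 genes (Isl1 and Six3 were at -0.04 and -0.27 in male libraries only). List medians changed sign in 28 of 475 alternatives, among 10 lists. The causes were not tested. The 200 higher genes became 133 at a mean of at least 50 and 118 after quantile normalization, and 127 to 344 with 1 library left out (lowest without Het3, highest without WT3). The 1 lower gene became 16 with no filter, 12 after quantile normalization, 53 in male libraries only, 8 without Het3 and KO3 together (chosen after seeing the data), and 1 to 7 with 1 library left out, the last without WT3. The ensheathing glia median of 2.71 became 2.04 with no filter, 1.99 at a mean of at least 50, 1.75 in male libraries only and 2.31 without Het3 and KO3. With no filter the mitral median became 0.58 and the periglomerular 0.85. In male libraries only the pan-cortical, upper and deep layer medians were -0.11, -0.0308 and -0.21, and without Het3 and KO3 they were -0.15, -0.0273 and -0.22. With 1 library left out they ranged from -0.12 to 0.0175, from -0.25 to -0.0832 and from -0.33 to -0.23.

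Calls with the bulb term stayed at 0 in every setting run for KO against WT. Het against WT gave 0 to 1 with 1 library left out, with 1 call (Lenep without WT1, Gm3650 without KO3, both named after their values were seen), and KO against Het 0 to 1, with 1 call (Lenep) without WT1 and with only the 2 genotypes compared. With a replicate block beside the bulb term, 0 genes passed in each of the 3 contrasts, with 400, 785 and 880 at an unadjusted p under 0.05. Leaving out WT3 or Het1 leaves its genotype without a bulb library. Genes near the value of 1 read (0.675 to 1.22) are limited by depth, and arms of 3 libraries by their number.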
